A study of Homo sapiens with 12 samples.

Results

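SUPT-1 is an established line of human T-cell acute lymphoblastic leukaemia. In it, 285 of the 2888 NR3C1 regions found in prednisolone-treated cells with the STAT5B mutant N642H met 2 conditions. They overlapped no NR3C1 region of prednisolone-treated cells with wild-type STAT5B (WT), and they overlapped by at least 1 bp a STAT5B region of untreated WT cells. The series as a whole held 11908 regions in 8 lists, 1 for each antibody, line and treatment. The groups used were NR3C1 and STAT5B in the N642H line with prednisolone, both in the WT line with prednisolone, and both in each line untreated. Prednisolone was given at 250 µg per ml for 16 hours. In all 8 groups the STAT5B form was overexpressed from a doxycycline-inducible construct, doxycycline had been added, and the cells had been selected with puromycin. The labels name no tag on STAT5B, so introduced STAT5B and the cells' own were not told apart.

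Each group held 1 library, so no difference between lists has a replicate check and no test between conditions was made. The 8 lists held between 2 and 4542 regions. The NR3C1 list with prednisolone held 2888 regions in the N642H line and 995 in the WT line, and both NR3C1 lists of untreated cells held 2. The members were chosen by 2 measured values, overlap with WT STAT5B and lack of overlap with WT NR3C1, which are therefore not results. As a description, 69.3% of all NR3C1 regions of the N642H line had no WT NR3C1 region, and 15% (432 of 2888) lay at a WT STAT5B region. The STAT5B lists with prednisolone held 446 regions in the N642H line and 766 in the WT line. Untreated, they held 4542 and 2267. A region missing from a list is only below that list's threshold, and no reading of the signal there was made. Counts and shares at a list depend on its length, so differences between STAT5B lists are not read as STAT5B lost or gained.

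NR3C1 is the glucocorticoid receptor, a ligand-activated transcription factor that moves to the nucleus when prednisolone binds it and can contact DNA directly or through other bound factors. STAT5B is a transcription factor that cytokine receptors of lymphocytes, such as IL7R, activate through JAK kinases, and N642H is an activating mutation in its SH2 domain seen in T-cell leukaemia. The palindrome TTCNNNGAA is the classical STAT site. The classical receptor site is AGAACA followed, 3 bases on, by its reverse complement. Both factors are also found at promoters and enhancers held open by other factors, among them the ETS family, whose core site is contained in CCGGAAG.

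The promoters shown here are 5 of the 84 RefSeq promoters that held the summit of a member. NME1, KBTBD4, MRPL20 and SNRPB show the CCGGAAG motif that was frequent among them, and YIPF4 shows one of the few STAT palindromes. Each run is the 250 bases before an annotated start, 5′ to 3′ along the gene, from the RefSeq table of GRCh38.p14. The windows are chr17:51153309-51153558 on the plus strand for NME1, chr11:47578971-47579220 on the minus strand for KBTBD4, chr2:32277654-32277903 on the plus strand for YIPF4, chr1:1407294-1407543 on the minus strand for MRPL20, and chr20:2470790-2471039 on the minus strand for SNRPB. Capitals mark, on either strand, the ETS-type motif CCGGAAG, the STAT palindrome TTCNNNGAA, the receptor arm AGAACA and the GC box GGGCGG. In KBTBD4 an ETS-type match overlaps a GC box.
NME1: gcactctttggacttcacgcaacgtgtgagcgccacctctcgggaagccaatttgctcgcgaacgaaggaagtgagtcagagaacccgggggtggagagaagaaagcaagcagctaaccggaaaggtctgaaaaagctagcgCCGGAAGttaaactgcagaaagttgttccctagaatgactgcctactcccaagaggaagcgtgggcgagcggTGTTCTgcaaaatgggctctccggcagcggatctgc
KBTBD4: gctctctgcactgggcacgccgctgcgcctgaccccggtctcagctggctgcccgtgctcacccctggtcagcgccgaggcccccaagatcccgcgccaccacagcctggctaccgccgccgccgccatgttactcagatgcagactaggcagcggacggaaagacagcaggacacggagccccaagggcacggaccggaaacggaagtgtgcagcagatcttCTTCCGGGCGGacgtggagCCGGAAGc
YIPF4: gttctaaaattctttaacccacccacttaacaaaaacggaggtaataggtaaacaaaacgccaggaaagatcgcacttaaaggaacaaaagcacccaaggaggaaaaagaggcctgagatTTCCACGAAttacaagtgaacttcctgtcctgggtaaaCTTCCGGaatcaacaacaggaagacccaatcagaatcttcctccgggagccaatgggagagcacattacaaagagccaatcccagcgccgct
MRPL20: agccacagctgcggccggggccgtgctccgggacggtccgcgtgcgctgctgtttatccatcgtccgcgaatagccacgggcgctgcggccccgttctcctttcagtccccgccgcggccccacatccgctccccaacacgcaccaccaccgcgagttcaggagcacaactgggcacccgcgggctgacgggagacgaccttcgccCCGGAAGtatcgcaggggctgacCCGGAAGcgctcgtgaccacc
SNRPB: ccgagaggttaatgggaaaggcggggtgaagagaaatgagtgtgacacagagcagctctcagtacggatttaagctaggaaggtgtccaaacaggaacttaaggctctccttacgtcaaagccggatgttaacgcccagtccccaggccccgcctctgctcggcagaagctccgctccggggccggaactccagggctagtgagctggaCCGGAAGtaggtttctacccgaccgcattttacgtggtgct

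NME1 makes a nucleoside diphosphate kinase, and its promoter held the strongest NR3C1 region of these 5, with a fold enrichment of 12.6. The summit lay 28 bp upstream of the start. KBTBD4 makes a substrate adaptor of a ubiquitin ligase, and its region had an NR3C1 fold of 7.12 with the summit 32 bp upstream of the start. YIPF4 had an NR3C1 fold of 6.75, MRPL20, a protein of the mitochondrial ribosome, 6.04, and SNRPB, a core protein of spliceosomal snRNPs, 6.22. The fold is the authors' ratio of ChIP pileup to local background at the summit, with 1 added to both. Below, −log10 q is the authors' own significance of a peak within its list, and both describe regions within a list only.

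The members were among the weaker NR3C1 regions of the N642H line, as were the other N642H-only regions. The rule leaves out every region at a WT NR3C1 region, so this contrast is not independent of it and is given as a description. Their NR3C1 fold ran between 3.77 and 33.9 with a median of 6.79 (quartiles 5.85 and 8.27), against a median of 8.26 in all 2888 regions and 11.8 in the 231 regions shared by both lines at STAT5B. Median −log10 q was 7.40 in members, against 11.0 in all regions and 21.6 in the shared regions at STAT5B. Median pileup at the summit was 14 fragments in members, 18 in all regions and 27 in the shared regions at STAT5B. The N642H-only regions at N642H-only STAT5B and those without STAT5B had median folds of 7.62 and 7.24 and median −log10 q of 9.47 and 8.62, nearer to the members than to the shared regions. By −log10 q, 28 members were among the 995 strongest NR3C1 regions of the N642H line, the length of the WT list, and 6 were among the 500 strongest. With all 4 lists of the rule held to 995 regions, only 16 regions met the rule. In position, 4 members lay within 1 kb of a WT NR3C1 region, and the median gap to the nearest was 600661 bp. With 995 regions in the WT list wide gaps can arise for any region, and other N642H-only regions were not counted for this.

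At the borders of the rule, members with a small overlap with WT STAT5B were the region nearest NEMF (4 bp), which lies at the RN7SL2 gene, and those nearest KIAA2013 (6 bp), TMEM167B (7 bp) and RUNX3 (24 bp). The regions just outside lay 3 bp from a WT STAT5B region near CCDC57, 9 bp near ZFAT, 13 bp near CIC, 40 bp near ST3GAL3 and 51 bp near HNRNPD. On the NR3C1 side, members lay 2 bp from a WT NR3C1 region near UQCRFS1, 17 bp near GABPB2, 283 bp near KLF13, 391 bp near GSE1 and 1040 bp near ELF1. Regions kept out by the shortest overlaps shared 7 bp with a WT NR3C1 region near AMZ1, 27 bp near ABTB2, 35 bp near LCT, 40 bp near DDHD1 and 44 bp near GPR84. Here and below, a region is named by the nearest named protein-coding gene in RefSeq, which does not make that gene its target.

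The strongest member lay between genes, 21207 bp from SOCS1, an inhibitor of JAK kinases that STAT5 is known to induce. At chr16:11232944-11233694 it had an NR3C1 fold of 33.9 and a −log10 q of 102. STAT5B regions there had folds of 12.6 in the N642H line with prednisolone, 32.9 in the N642H line untreated and 6.16 in the WT line untreated, and the WT line with prednisolone had none. The member thus sat on a strong STAT5B region of the untreated N642H line and a modest one of the untreated WT line. A WT NR3C1 region lay 3926 bp from this member. The next by NR3C1 strength were a region 90083 bp from TMEM18 (fold 25.6), a region 93745 bp from TCF7L2, a Wnt pathway transcription factor (fold 19.5), and regions inside LIPC, which encodes hepatic lipase (16.8), CAMKMT (19.4) and SLC35F3 (15.03). These 6 were the only members among the 500 strongest NR3C1 regions. All 6 lay away from gene ends, and all 6 also lay at a STAT5B region of untreated N642H cells. The WT STAT5B regions at TMEM18 and SLC35F3 were near the list's limit of 2 in −log10 q, at 2.20 and 2.36. The others of the 6 lay between 3.84 at TCF7L2 and 5.42 at CAMKMT.

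DDIT4, an inhibitor of mTORC1 signalling that glucocorticoids are known to induce, had a member 12731 bp upstream at chr10:72260701-72261317. Its NR3C1 fold was 15.7, with STAT5B folds of 6.47 in the N642H line with prednisolone, 8.20 in the N642H line untreated and 7.19 in the WT line untreated. BCL6, a transcriptional repressor whose gene STAT5 is known to bind, had a member 358 bp upstream of its start at chr3:187745335-187745961. The NR3C1 fold there was 11.9, with STAT5B folds of 7.30 in the N642H line with prednisolone, 18.7 in the N642H line untreated and 4.14 in the WT line untreated. The STAT5B summits lay 408, 379 and 256 bp from the NR3C1 summit, in the same order. Membership was marginal, since the WT STAT5B region had a −log10 q of 2.20, near the list's limit of 2, and shared 97 bp. Neither the DDIT4 nor the BCL6 member lay at a STAT5B region of the WT line with prednisolone. A WT NR3C1 region lay 5190 bp from the DDIT4 member and 5670 bp from the BCL6 member. Further regions of the 20 strongest lay in or near EVL, LIMS1, LDLRAD4, PUDP, MYO18B, TNRC6C, NME1-NME2, AP1G1, HDAC4, ANKRD31 and FEM1A, with NR3C1 folds between 10.3 and 14.4. AP1G1, a subunit of a clathrin adaptor, FEM1A, a ubiquitin ligase adaptor, NME1-NME2 and BCL6 were the 4 of the 20 at a gene end.

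Spearman's rho between NR3C1 −log10 q and WT STAT5B −log10 q was 0.0332 over the 285 members, given as a description because regions of 1 library are not replicates. The WT STAT5B regions at members had a median fold of 6.48 (quartiles 5.37 and 7.76), close to the 6.25 of all 2267 regions of that list. Even so, with WT STAT5B regions in 4 groups of equal size by −log10 q, 18.0% of the strongest group held a member (95% interval 14.9 to 21.4), and between 10.1% and 12% of each other group did. The interval of the second strongest group, 9.45 to 15, overlaps that of the strongest. Intervals here and below are exact Clopper-Pearson intervals over regions of these libraries and cover counting error only. The strongest WT STAT5B region at a member, with a STAT5B fold of 17.6, lay 2116 bp from ZBTB7B, which encodes ThPOK, a factor of CD4 T-cell fate. Its NR3C1 fold was 9.45, and STAT5B folds were 12.9 in the N642H line with prednisolone, 11.9 in the N642H line untreated and 5.99 in the WT line with prednisolone.

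Further strong WT STAT5B regions at members lay inside MAN1C1 (WT STAT5B fold 13.4) and CFAP46 (14.6), at the ends of MTF2, a Polycomb-associated protein (11.4), RBBP5, a subunit of histone H3K4 methyltransferases (12.8) and NME1-NME2 (11.5), and near SNX6 (12.3). Behind them came 6 regions tied in WT STAT5B −log10 q, each with a WT STAT5B fold of 11.8, at AP1G1, BRWD1, RGS16, TCF3, TNRC6C and an snRNA gene of chromosome 17. Of all these, the NR3C1 fold was below the members' median near SNX6 (4.63), in CFAP46 (5.25), in MAN1C1 (6.09) and at the snRNA gene (6.14), and the highest were 12.7 at AP1G1 and 12.6 at NME1-NME2.

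**Figure D1:**
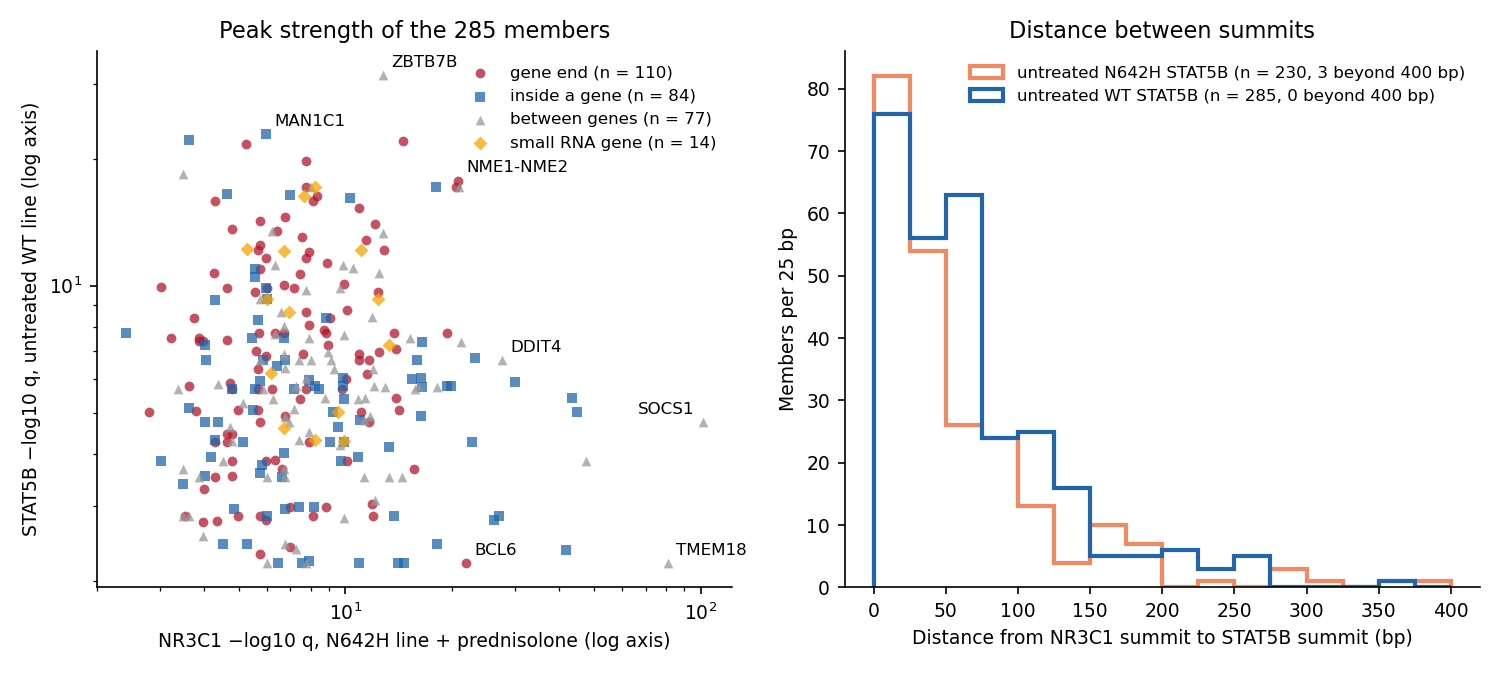
Left, each point is 1 of the 285 members, by NR3C1 −log10 q in the N642H line with prednisolone and by −log10 q of the overlapped STAT5B region in the untreated WT line (log axes), coloured by position. Right, distances in bp between the NR3C1 summit and the STAT5B summit in untreated N642H cells (n = 230) and untreated WT cells (n = 285). SOCS1 and TMEM18 are far right with modest WT STAT5B values, ZBTB7B is at the top with a middling NR3C1 value, and most distances are under 100 bp.

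NR3C1 and STAT5B summits lay close together. The median distance between the NR3C1 summit and the WT STAT5B summit was 53 bp (quartiles 24 and 95), and 220 of 285 members (77.2%, 71.9 to 81.9) had it within 100 bp. The largest distance was 363 bp. In the shared regions at WT STAT5B the median was 60 bp, with 107 of 147 (72.8%, 64.8 to 79.8) within 100 bp, with an interval that overlaps that of the members. Against the STAT5B summits of untreated N642H cells the median was 38.5 bp over the 230 members with such a region, and 186 of them (80.9%, 75.2 to 85.7) were within 100 bp. The members were 200 bp wide at the median, and overlap itself limits these distances.

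Most members were also STAT5B regions of the untreated N642H line, which the rule did not require. These were 230 of 285 (80.7%, 75.6 to 85.1), where 27.8% of all NR3C1 regions of the N642H line lay at such a region. Since the rule puts every member at a STAT5B region of untreated WT cells, nothing about members is read from that background, and the list of those WT regions is the nearer measure. Counted over WT STAT5B regions, 80.4% of the 291 at members (75.4 to 84.8) lay at STAT5B of untreated N642H cells, against 61.4% of all 2267 (59.4 to 63.4) and 56.3% of the 1825 at no NR3C1 region of the N642H line (54.0 to 58.6). The share was 91.3% (86.9 to 94.6) in the shared regions at STAT5B, whose rule asked for either untreated STAT5B list. The STAT5B regions of untreated N642H cells at members had a median fold of 7.47, against 6.13 in all 4542 regions of that list. With prednisolone, 72 members (25.3%, 20.3 to 30.7) lay at a STAT5B region of the N642H line, where the background was 7.76%, and 109 (38.2%, 32.6 to 44.2) at one of the WT line, where the background was 9.04%. Over WT STAT5B regions the shares were 24.4% (19.6 to 29.8) and 36.4% (30.9 to 42.2) at members, against 10.0% (8.81 to 11.3) and 19.9% (18.2 to 21.6) of all, in the same order of lists. WT STAT5B regions at NR3C1 regions of both lines were not counted apart. Both prednisolone lists held 52 members (18.2%, 13.9 to 23.2), with a background of 3.50%. No member overlapped an NR3C1 region of either untreated line, where 2 of 2888 regions, 0.0693%, did in each, and those lists held 2 regions each.

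With prednisolone, members lay at STAT5B regions at shares near those of the regions of both lines at STAT5B. Only 147 of those 231 regions lay at WT STAT5B, where the rule puts every member, so this nearness is a description. The shares of those 147 were not counted. The other N642H-only regions lack WT STAT5B by their own rule, so their lower shares are given as a description only. In the 362 N642H-only regions whose untreated STAT5B region was in the N642H line alone, 11.0% (8.01 to 14.7) lay at prednisolone STAT5B of the N642H line and 5.25% (3.19 to 8.08) at that of the WT line. In the 1354 N642H-only regions without untreated STAT5B the shares were 3.47% and 0.517%. In the shared regions at STAT5B they were 21.2% (16.1 to 27.1) and 40.7% (34.3 to 47.3), with intervals that overlap those of the members. In all, 51 members lay at all 4 STAT5B lists and 47 at the untreated WT list alone.

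The 55 members without STAT5B in untreated N642H cells included regions inside LIMS1, a focal adhesion adaptor, with an NR3C1 fold of 14.1, and ANKRD31, with 11.0. DUSP10, a MAP kinase phosphatase, held one with a fold of 10.6. SPRY4, a feedback inhibitor of receptor tyrosine kinase signalling, had one at 108153 bp, also with 10.6. A WT NR3C1 region lay 6303 bp from the SPRY4 member. The next strongest members without STAT5B in untreated N642H cells lay inside BICRAL, SLC9A9, SMPD3 and ACSS3, with NR3C1 folds between 9.26 and 11.1. The WT STAT5B folds of these 8 regions ran between 3.90 at DUSP10 and 7.18 at SLC9A9, and of the 8 only the region in BICRAL was in a prednisolone list of STAT5B, that of the WT line. WT STAT5B −log10 q was near the list's limit of 2 at ACSS3 (2.20) and DUSP10 (2.44). It lay between 2.79 at LIMS1 and 6.67 at SLC9A9 in the others.

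**Figure D2:**
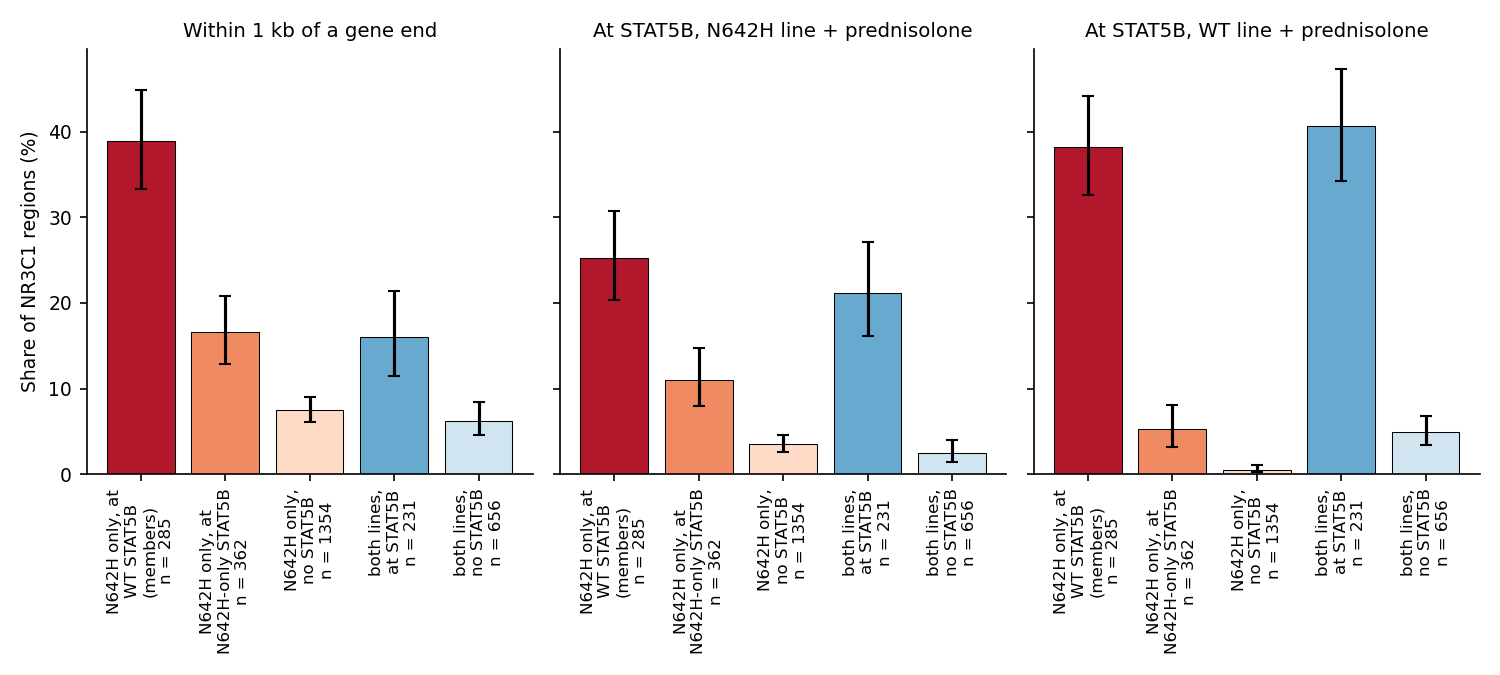
Share (%) of NR3C1 regions of the prednisolone-treated N642H line that lie within 1 kb of a gene end, at a STAT5B region of the N642H line with prednisolone, or at one of the WT line with prednisolone. Bars stand for 5 region classes and error bars for exact 95% intervals. Members have the highest share at gene ends, 38.9%, a contrast not independent of the rule, which puts them at WT STAT5B. On both prednisolone STAT5B lists they are near the regions of both lines at STAT5B, of which only 147 of 231 lay at WT STAT5B.

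Members lay at gene ends more often than the other NR3C1 classes, which is given as a description. The rule puts every member at WT STAT5B, a list rich in gene ends. The other N642H-only classes lack WT STAT5B by their own rule, and 147 of the 231 shared regions at STAT5B had it. The gene-end share of those 147 was not counted. In 111 of 285 members the summit was within 1 kb of the start or end of a gene that codes for protein (38.9%, 33.3 to 44.9), against 12.1% of all NR3C1 regions of the N642H line. The share was 16.6% (12.9 to 20.8) in N642H-only regions at N642H-only STAT5B, 7.46% (6.12 to 8.99) in those without STAT5B and 16.0% (11.5 to 21.4) in the shared regions at STAT5B, and none of these intervals overlapped that of the members. With the lists held to 995 regions it was 18.8% of the 16 members left (4.05 to 45.6), which overlaps all of these. The share was nevertheless lower than in the WT STAT5B list itself, where 57.4% of all 2267 regions (55.4 to 59.5) and 63.3% of the 1825 at no NR3C1 region of the N642H line (61.0 to 65.5) lay at a gene end. The members' share thus stood between those of the 2 factors' lists.

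Most of these ends were gene starts. Among gene-end members off chromosome 8 and not at small RNA genes, 88 of 104 (84.6%, 76.2 to 90.9) had a start of the RefSeq promoter table within 1 kb. Over all members off chromosome 8 such a start was within 1 kb of 100 of 275 (36.4%, 30.7 to 42.4), with a background of 11.2%, and 12 of these lay inside the span of a gene away from its ends. Chromosome 8 is not in the promoter table used here. Where the nearest gene's own start was within 1 kb, the summit was upstream of it in 85 of 96 members (88.5%, 80.4 to 94.1), at a median of −80.5 bp. Setting apart the 14 members at genes of small RNAs, 110 lay at gene ends, 84 inside a gene away from its ends and 77 between genes. By NR3C1 −log10 q, the gene-end share was 49.5% (39.1 to 59.9) of the 95 weakest members. It was 35.8% (26.2 to 46.3) of the 95 in the middle and 31.6% (22.4 to 41.9) of the 95 strongest. The intervals of these groups overlap.

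Gene-end members recurred in the STAT5B lists more often than the rest. Of the 110 gene-end members that were not at small RNA genes, 44 (40.0%, 30.8 to 49.8) lay at STAT5B of the N642H line with prednisolone, 97 (88.2%, 80.6 to 93.6) at that of the untreated N642H line and 65 (59.1%, 49.3 to 68.4) at that of the WT line with prednisolone. Inside genes the shares were 13.1% (6.72 to 22.2), 75% (64.4 to 83.8) and 25% (16.2 to 35.6), in the same order of lists. Between genes they were 19.5% (11.3 to 30.1), 72.7% (61.4 to 82.3) and 22.1% (13.4 to 33.0). The 2 prednisolone lists separate gene-end members from both other kinds with intervals that do not overlap, and the untreated N642H list does not. Median NR3C1 folds were 6.64 at gene ends, 6.86 inside genes and 7.12 between genes, and median WT STAT5B folds were 7.19 at gene ends, 6.16 inside genes and 6.46 between genes.

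In the prednisolone lists the same split was small where the WT STAT5B region had no NR3C1 region of the N642H line, and in the untreated N642H list it was of like size with and without NR3C1. Counted over WT STAT5B regions, those at members recurred in the N642H line with prednisolone in 46 of 113 cases at gene ends (40.7%, 31.6 to 50.4) and in 25 of 178 away from them (14.0%, 9.30 to 20.0). Those with no NR3C1 region did so in 81 of 1155 cases at gene ends (7.01%, 5.61 to 8.64) and in 35 of 670 away from them (5.22%, 3.67 to 7.19). In prednisolone-treated WT cells the shares were 56.6% (47.0 to 65.9) and 23.6% (17.6 to 30.5) at members, against 15.7% (13.6 to 17.9) and 11.8% (9.45 to 14.5) with no NR3C1 region. In untreated N642H cells they were 88.5% (81.1 to 93.7) and 75.3% (68.3 to 81.4) at members, against 61.0% (58.1 to 63.8) and 48.4% (44.5 to 52.2) with no NR3C1 region. Median WT STAT5B fold moved with this, at 7.16 for gene-end regions at members, 6.25 for other regions at members, and 6.21 for both kinds without NR3C1. Its part in the recurrence was not tested. WT STAT5B regions at NR3C1 regions of both lines were not counted apart, so nothing here is read as particular to members.

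**Figure D3:**
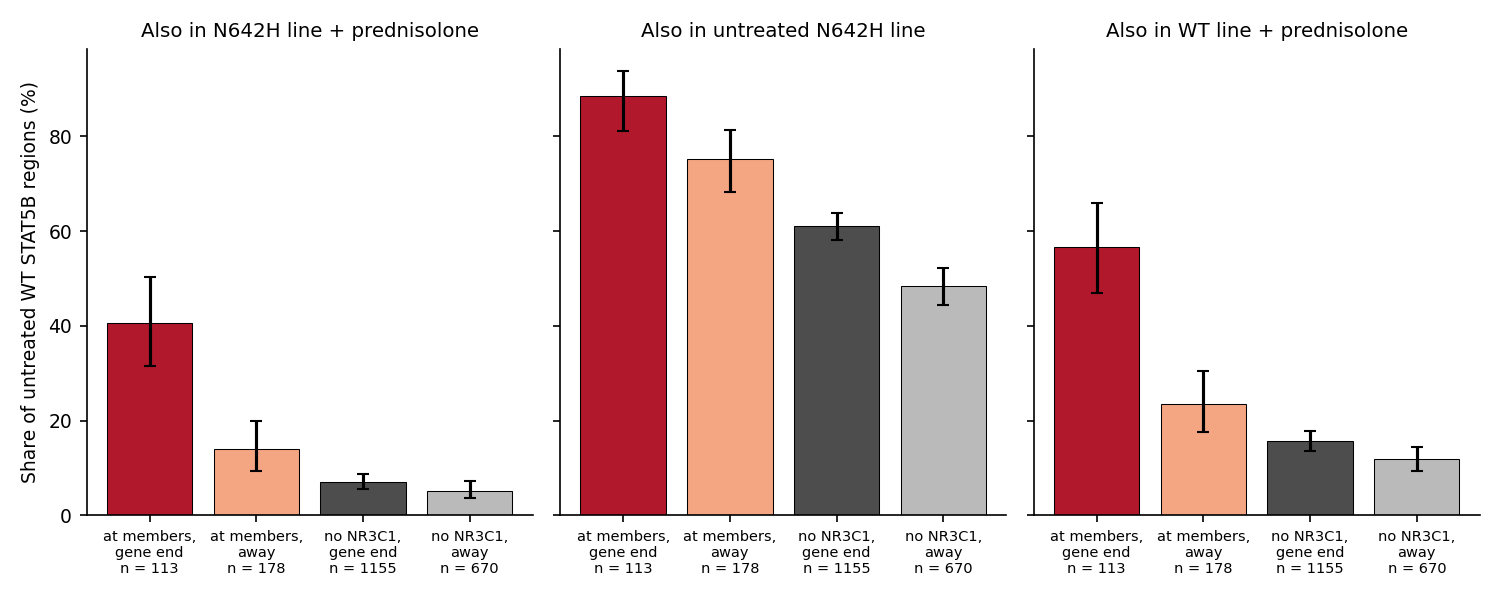
Share (%) of STAT5B regions of the untreated WT line that also overlap a STAT5B region of the N642H line with prednisolone, the N642H line untreated or the WT line with prednisolone. Regions are split by whether they lie at a member or at no NR3C1 region of the N642H line, and by gene end, and error bars are exact 95% intervals. Gene-end regions at members reach 40.7%, 88.5% and 56.6%, the highest of the bars shown in each panel. STAT5B regions at NR3C1 regions of both lines are not shown.

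Of the 52 members at prednisolone STAT5B in both lines, the 15 strongest by NR3C1 included 9 at gene ends. These lay at NME1-NME2, AP1G1, INTS14, a subunit of the Integrator complex, MTF2, RGS5, RBL1, which encodes the retinoblastoma relative p107, CCNI, TEFM, a mitochondrial transcription elongation factor, and MRPL13, of the mitochondrial ribosome. At AP1G1 the NR3C1 fold was 12.7, and STAT5B folds were 8.17 in the N642H line with prednisolone, 8.82 in the N642H line untreated, 11.1 in prednisolone-treated WT cells and 11.8 in untreated WT cells. At RBL1 the NR3C1 fold was 9.45, and the STAT5B folds in the same order of libraries were 8.71, 13.3, 11.5 and 6.50. The other 6 were a region inside HDAC4, a class II histone deacetylase, a region inside the span of BRWD1 but 138 bp upstream of an annotated start of it, a region at the RNU2-2 snRNA gene, and regions between genes near ZBTB7B, IQSEC3 and IGFBP3.

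Member promoters held the ETS-type motif more often than RefSeq promoters at large, and the STAT palindrome about as often. The rule puts every member at WT STAT5B, so promoters at WT STAT5B are the nearer measure. CCGGAAG, searched on both strands of the 300 bases from 250 before to 50 after the start, was in 37 of 84 member promoters (44.0%, 33.2 to 55.3), against 10.3% of all 35116 RefSeq promoters. It was in 31.5% (28.4 to 34.7) of the 845 promoters that held the summit of any WT STAT5B region, which include those of the members, and the 2 intervals overlap. It was in 17.9% (7.54 to 33.5) of 39 promoters of N642H-only regions at N642H-only STAT5B, in 15.4% (6.88 to 28.1) of 52 without STAT5B and in 14.3% (3.05 to 36.3) of 21 of the shared regions at STAT5B. Of 8 promoters of shared regions without STAT5B 3 held it (37.5%, 8.52 to 75.5), an interval that overlaps those of all these classes. TTCNNNGAA was in 7 member promoters (8.33%, 3.42 to 16.4), near the 7.66% of all promoters and the 7.34% at WT STAT5B. In the other N642H-only classes it was in 23.1% (11.1 to 39.3) and 21.2% (11.1 to 34.7).

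The full receptor palindrome was in 0 of the 84 member promoters, and 0.00285% of all promoters hold it. AGAACA alone, which any palindrome would also count, was in 10.7% (5.02 to 19.4) of member promoters, against 14.8% of all promoters. GGGCGG, the GC box that SP family factors bind, was in 63.1% (51.9 to 73.4), against 45.0% of all promoters and 68.2% (64.9 to 71.3) at WT STAT5B. TGTGGT, a RUNX core site, was in 10.7% (5.02 to 19.4) against 13.1%, and CCAAT in 26.2% (17.2 to 36.9) against 34.6%. In the 37 promoters with CCGGAAG the nearest match lay a median of 37 bp from the NR3C1 summit (quartiles 21 and 105), and 22 had one within 50 bp. Recurrence in the WT line with prednisolone was 67.6% (50.2 to 82.0) with the motif and 61.7% (46.4 to 75.5) without it, with overlapping intervals. In the N642H line with prednisolone it was 37.8% (22.5 to 55.2) with the motif and 44.7% (30.2 to 59.9) without it. In untreated N642H cells it was 86.5% (71.2 to 95.5) and 85.1% (71.7 to 93.8), in the same order, and intervals overlap in both lists. These matches describe letters in promoter windows only, and members away from promoters were not searched.

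**Figure D4:**
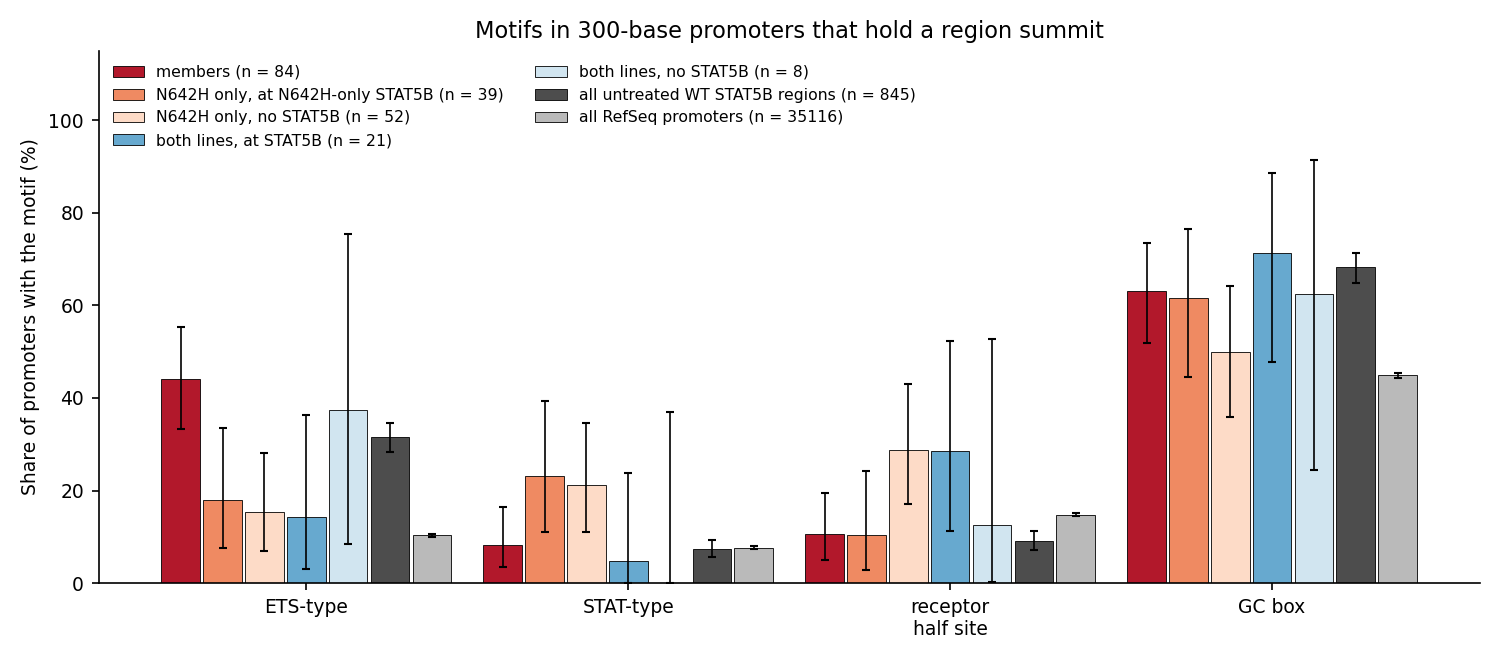
Share (%) of promoters of 300 bases that hold each motif, for promoters with the summit of a member, of a region of 4 other NR3C1 classes or of any STAT5B region of untreated WT cells, and for all RefSeq promoters. Error bars are exact 95% intervals. The ETS-type motif is in 44.0% of member promoters, 31.5% of those at WT STAT5B, where the rule puts every member, and 10.3% of all promoters. The STAT-type palindrome is in 8.33% of member promoters and 7.66% of all promoters.

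Genes of spliceosomal small nuclear RNAs, which are short, highly transcribed and present in near-identical copies, formed another group of members. Of the 15 NR3C1 regions of the N642H line within 1 kb of an annotated snRNA or scRNA gene (0.519% of the list), 14 were members, which is 4.91% of the members (2.71 to 8.10). The WT STAT5B list had 47 of 2267 regions at such genes (2.07%, 1.53 to 2.75), and the intervals of the shares just overlap. With the lists held to 995 regions, 0 members lay at such genes. Of the 14 members, 11 lay in a stretch of 66.3 kb on chromosome 17 with 13 annotated snRNA genes of 188 to 192 bp, the first of which is RNU2-1, a gene of the U2 snRNA. The others lay at RNU2-2 on chromosome 11, at RNU1-3, a U1 snRNA gene on chromosome 1, and at RN7SL2, a gene of the signal recognition particle RNA on chromosome 14.

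The rule fixed that members there had WT STAT5B and no WT NR3C1, so those counts are a description. Along the stretch, NR3C1 of the N642H line had a region within 500 bp of 11 of the 13 genes, and NR3C1 of the WT line had 0. STAT5B had 1 in the N642H line with prednisolone, 13 in the N642H line untreated, 5 in prednisolone-treated WT cells and 13 in untreated WT cells. The prednisolone STAT5B lists are short, with 446 regions in the N642H line and 766 in the WT line, against 4542 and 2267 untreated. The lower counts there are therefore not read as a loss. NR3C1 folds at these 11 members ran between 4.01 and 8.05, and at RNU2-1 the NR3C1 fold was 7.06, with STAT5B folds of 6.67 in untreated N642H cells and 9.48 in untreated WT cells. RNU2-2, outside the stretch, had an NR3C1 fold of 8.89 and STAT5B folds of 11.6 in the N642H line with prednisolone, 6.98 in the N642H line untreated, 8.09 in prednisolone-treated WT cells and 5.72 in untreated WT cells. Local background reached 7.23 fragments at 1 of the 11, against a median of 1.18 over all members. That region was the only member of high background, at least 10 times the level of its library, which 2.01% of the list had. How reads of near-identical copies were placed is not given in the sources used here, so the 11 regions may not be separate sites.

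**Figure D5:**
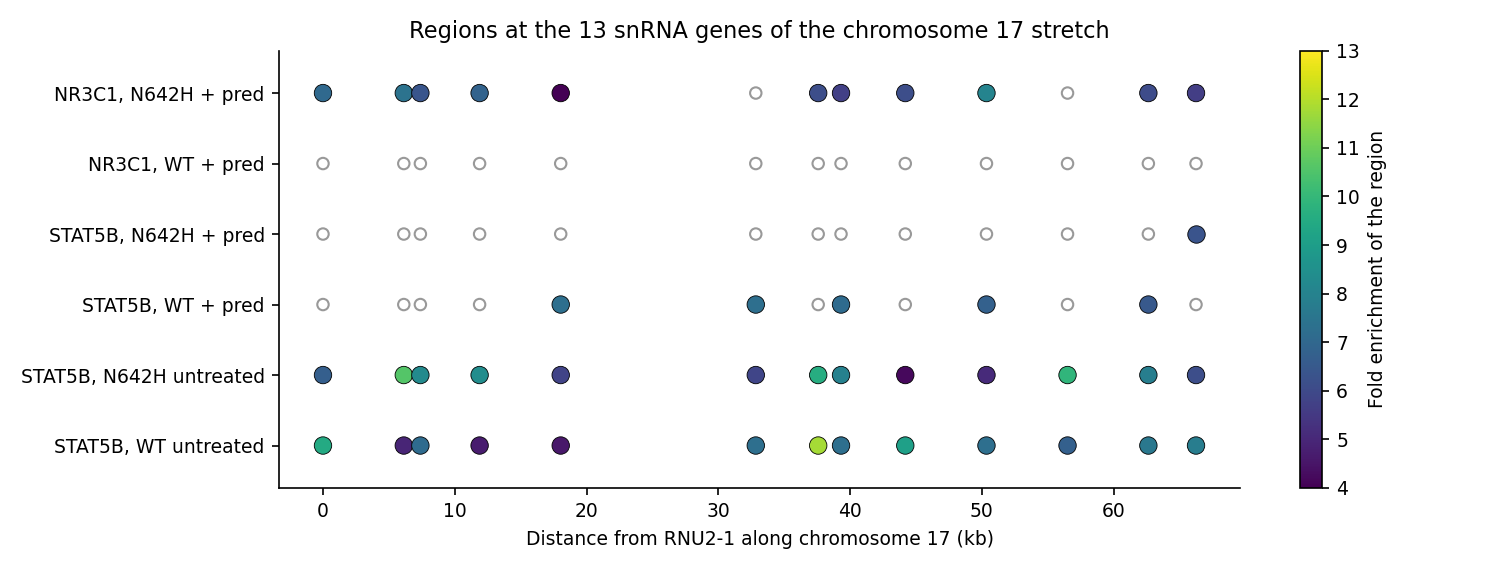
Filled points mark a region within 500 bp of each of the 13 snRNA genes of the chromosome 17 stretch, by distance from RNU2-1 (kb) and by library, coloured by fold enrichment, and open points mark none. NR3C1 of the N642H line has regions at 11 genes, all members, for which the rule fixed the WT NR3C1 and untreated WT STAT5B rows, and untreated N642H STAT5B has one at all 13.

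Linked genes were counted by list, a gene being linked when a member's summit was inside it or at most 20 kb away. Of all 19866 protein-coding genes, 374 (1.88%) were linked to a member and 11.0% to any NR3C1 region of the N642H line. Among STAT5 targets 4 of 30 were linked, BCL6, MYC, CCND3 and DUSP6, and 15 of 30 had any NR3C1 region of the N642H line. DUSP6, a phosphatase of ERK, had a member 193 bp upstream of its start with an NR3C1 fold of 9.85 and STAT5B folds of 6.00 in untreated N642H cells and 7.46 in untreated WT cells. MYC, a transcription factor of growth, had a weak one inside the gene with an NR3C1 fold of 4.03, and CCND3, a D-type cyclin, had one inside it with 6.14. Of 30 glucocorticoid response genes only KLF13, a Krüppel-like factor, and DDIT4 were linked to a member, while 18 had any NR3C1 region. KLF13 had an NR3C1 fold of 9.17 at 918 bp upstream of its start, with a WT STAT5B fold of 4.16 and no other STAT5B region, and a WT NR3C1 region lay 283 bp away.

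In the BCL2 family 7 of 20 genes had any NR3C1 region of the N642H line, and 1 was linked to a member. This was BMF, a pro-apoptotic BH3-only protein, with a member 166 bp upstream of its start and an NR3C1 fold of 4.99. STAT5B folds at BMF were 9.10 in the N642H line untreated, 6.02 in prednisolone-treated WT cells and 4.83 in untreated WT cells. BCL2 and BCL2L1, which the study's title concerns, were not linked to a member.

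Of 25 chromatin regulators 5 had any NR3C1 region of the N642H line and 3 were linked to a member. These were EZH2, the Polycomb methyltransferase (NR3C1 fold 7.40), KDM6B, a demethylase of the same histone mark (5.36), and ARID1A, a SWI/SNF subunit (4.60). Of 25 T-lineage factors only TCF3, which encodes the E proteins E12 and E47, was linked to a member, with an NR3C1 fold of 6.79 at 186 bp upstream of its start, and 15 had any NR3C1 region. Of 25 T-cell receptor signalling genes 15 had any NR3C1 region. The adaptor LCP2 and the exchange factor VAV1 were linked to a member, with NR3C1 folds of 5.70 and 5.94 at regions inside the genes. Of 25 cell cycle and MYC genes, CCND3, MYC and MCM7, a helicase subunit of DNA replication, were linked, and 7 had any NR3C1 region. The MCM7 link was a region 10955 bp from that gene and 50 bp upstream of the start of ZNF3, with an NR3C1 fold of 6.96. UBE2D3, which encodes a ubiquitin-conjugating enzyme, was the 1 of 25 ubiquitin and proteasome genes linked. Of 25 RNA processing genes and 16 genes of non-blood tissues, 0 were linked. In these lists 2, 2 and 1 genes had any NR3C1 region, in the same order.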

How the data were processed

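NR3C1 and STAT5B ChIP-seq libraries, 1 per group, came as peak lists. BWA, MACS2, deepTools and hg38 are named in the submitters' processing notes, and versions and the use of the 4 input libraries are not given in the sources used here. For each peak the authors deposited a span, a summit, a score (the −log10 q times 10, rounded down), a fold, which is the ratio of pileup to local background, a −log10 p, and a −log10 q of at least 2. No p-value was computed.

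Regions on chromosomes 1 to 22, X and Y were called overlapping where they shared 1 bp or more (Python 3.11.15, pandas 2.3.3, scipy 1.17.1). Pileup and local background were solved from the deposited fold and −log10 p under the Poisson formula of MACS2, and the solution was tested on simulated peaks. Depth was not given beyond this. Gene spans and promoters are from RefSeq GRCh38.p14. No genome was used, so motifs were searched in promoters only. Regions were named by a rule: the nearest gene of the 20 strongest members, the 10 with the strongest WT STAT5B, up to 15 at prednisolone STAT5B in both lines, up to 6 linked genes per list, 5 at each border, and up to 8 without untreated N642H STAT5B. The members and the gene lists were chosen with earlier results of these data known. Results for a few genes and for 2 of the gene lists are not reported here.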

Additional observations from a re-analysis of the deposited data

How the results depend on the processing

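No paired analysis was possible because each group held 1 library, and no replicate could be left out. Over 9 results and 74 recomputed values, 60 stayed within 1.5 times the count or within the 95% interval of the share given above. With the 4 lists of the rule held to 995 regions, the members fell to 16, of which 68.8% lay at untreated N642H STAT5B, 56.2% at WT STAT5B with prednisolone, 37.5% at N642H STAT5B with prednisolone and 18.8% at gene ends. That setting left 0 members at small RNA genes, 25% of 4 promoters with CCGGAAG and 1 linked list gene. With −log10 q of at least 5 in all lists there were 170 members, 82.9% of them with NR3C1 and WT STAT5B summits within 100 bp. In that setting 34.6% of 52 promoters held CCGGAAG. With a fold of at least 5, 74.4% lay at untreated N642H STAT5B, and 46.3% of 67 promoters held CCGGAAG. Summits were within 50 bp in 47.0% and within 200 bp in 95.1%, and with genes linked by their span alone 7 list genes were linked, against 18. Leaving out members at small RNA genes was chosen after seeing the data, as was applying the settings of the rule to CCGGAAG and to small RNA genes, and leaving them out moved no share beyond its interval. Motif windows of other widths around summits were not run, since they need a genome sequence. Pileups of 9 to 77 fragments and 1 library per group limit every statement above.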

Other observations

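The 285 members lay on 23 chromosomes, with 39 on chromosome 1, 35 on chromosome 2 and 25 on chromosome 17, which holds the snRNA stretch. A further 34 NR3C1 regions of the N642H line lay on sequences outside the numbered chromosomes, X and Y, and 2 of them met the same overlap rule.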
